A study of Homo sapiens with 15 samples.

Results

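The genes described here are 38 members of the oxidative stress programme run by the transcription factor NRF2: NRF2 itself, its partners, and known targets of it in glutathione, thioredoxin, quinone, NADPH, haem, iron and export functions. They were found by symbol among the 56624 symbols of a deposited RNA-seq table, in which every member had a row. TF-1 is an established human erythroleukaemia line that depends on cytokine. The 4 edited groups carry IDH mutations put in by base editing, namely IDH1R132H, IDH2R140Q, IDH2R140W and IDH2R172K, and grew without GM-CSF. The group they were set against, Parental, was unedited and grew with 2 ng/ml GM-CSF. All 5 groups shared RPMI-1640 medium with 10% fetal bovine serum and held 3 libraries each, 15 in all. Genotype and GM-CSF therefore cannot be told apart in any comparison with Parental, while the edited lines shared 1 medium. The labels do not say whether the libraries of a group came from separate cultures or whether an edited line was 1 clone, so the spread behind the p-values is that of these libraries and may be technical.

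NRF2, the product of NFE2L2, is held in the cytoplasm and sent for destruction by KEAP1, a sensor whose cysteines react with oxidants and electrophiles. When KEAP1 is modified, NRF2 accumulates, pairs with a small MAF protein and binds antioxidant response elements, which switch on enzymes that make glutathione, reduce thioredoxin and quinones, supply NADPH and export conjugates. The activity of NRF2 is set mainly at the protein level, so the mRNA of its targets carries information that its own mRNA does not. The mutant IDH enzymes of this study consume NADPH when they reduce 2-oxoglutarate to 2-hydroxyglutarate, whereas the normal enzymes produce NADPH.

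Values were TPM, an abundance scaled for transcript length and to a fixed total per library, for which read depth is unknown. Differences were fitted with limma on log2(TPM + 1) over all 14881 genes that reached 1 TPM in 3 or more libraries, and p-values were adjusted over all of these. A gene is said to have risen or fallen where the adjusted p was under 0.05 and the log2 difference was at least 1, which is 2-fold on this scale. Higher or lower at adjusted p alone means that the p threshold was passed, whatever the size. The scale understates changes of genes near 1 TPM. With 3 libraries against 3, an exact permutation test of a single gene cannot give a p below 0.10, so none is given. Of the 38 members, 35 could be tested. Those left out were TKT, the transketolase of the pentose phosphate pathway, listed at 0 in all 15 libraries, AKR1B1, an aldose reductase at 0.95 TPM or less, and ABCC2, a conjugate exporter at 0.74 TPM or less. ABCC3 was the 1 tested member with every Parental library under 1 TPM. It passed the filter only through lines where it was higher, so its direction against Parental was largely set in advance.

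Between 12796 and 13792 genes reached 1 TPM in a library, and libraries of a group correlated at 0.974 to 0.990 (Pearson, across genes). Of 7 progenitor markers 5 reached 1 TPM. CD34 averaged between 276 and 533 TPM in the edited lines and 152.5 TPM in Parental, while CSF2RA and GATA1, both defining for this line, were listed at 0 throughout. A 0 of this kind, like that of TKT, may be a failed estimate in the table and is not read here as absence. IDH2R140W replicate 3 and Parental replicate 2 stood apart, with 21.9% and 21.0% of their TPM in ribosomal protein genes, against 13.7% to 18.4% in the other 13 libraries. Differences named below are given without either library where leaving it out ended the call at adjusted p alone. The summed level of 12 erythroid genes was 179 to 194 TPM in IDH1R132H, 155 to 158 TPM in IDH2R140Q, 352 to 402 TPM in IDH2R140W and 1212 to 1361 TPM in IDH2R172K, against 1306 to 1836 TPM in Parental. Summed mast cell and basophil genes were 325 to 695 TPM in the edited lines and 84.8 to 98.0 TPM in Parental. FCER1A made up most of that sum, with means of 248 to 637 TPM in the edited lines and 77.6 TPM in Parental, while KIT fell in IDH2R140Q and IDH2R172K. Summed megakaryocyte genes were 461 to 666 TPM in the edited lines and 326 to 361 TPM in Parental. GP1BA, ITGB3, PPBP and SELP rose in IDH1R132H, IDH2R140Q and IDH2R172K, while in IDH2R140W only ITGB3 rose. GP9 went the other way and fell in IDH2R140Q and IDH2R140W, with means of 6.07 and 4.75 TPM against 13.7 TPM in Parental. In bulk RNA, fewer cells of a type and less RNA per cell cannot be told apart.

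Few members moved far, and the 2-fold calls of the 4 edited lines overlapped in part. MGST1 fell in all 4 lines, BLVRB fell in 3 and ABCC3 rose in 3. In IDH1R132H, 2 of the 35 tested members rose, ABCC3 and OSGIN1, against 7.74% of all genes, and 3 fell, MGST1, BLVRA and BLVRB, against 3.09%. In IDH2R140Q, ABCC3 and CBR3 rose, 2 members beside 7.56% of all genes, and MGST1 and BLVRB fell, 2 members beside 2.47%. In IDH2R140W, CBR3 was the 1 member to rise, beside 2.68% of all genes, and MGST1 and BLVRB were the 2 to fall, beside 2.10%. In IDH2R172K, ABCC3 was the 1 member to rise, beside 6.36%, and 6 members fell, beside 2.96%: SLC7A11, MGST1, NQO1, AKR1C1, ME1 and HMOX1. The share of members that rose was below that of all genes in 3 comparisons and close to it in IDH2R140W, and the share that fell was above that of all genes in all 4. These comparisons share the Parental libraries. The members were chosen with earlier results of these data known, so the shares here and below describe the list and are not a test of it.

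At adjusted p alone the lines spread further apart. In IDH1R132H, 16 members (45.7%) were higher, beside 30.1% of all genes, and 7 (20%) were lower, beside 13.7%. In IDH2R140Q, 8 members (22.9%) were higher, beside 33.3%, and 9 (25.7%) lower, beside 11.1%. In IDH2R140W, 7 (20%) were higher, beside 13.3%, and 8 (22.9%) lower, beside 10.7%. In IDH2R172K, 4 (11.4%) were higher, beside 25.5%, and 20 (57.1%) lower, beside 13.5%. The members had a median log2 difference of 0.22 (IDH1R132H), 0.07 (IDH2R140Q), -0.03 (IDH2R140W) and -0.30 (IDH2R172K), against 0.16, 0.23, 0.03 and 0.13 for all tested genes.

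These splits depend on the scaling. Median-ratio scaling sets the median gene at no change and so lowers all differences from Parental by about the medians of all genes just given, more than 0.1 in IDH1R132H, IDH2R140Q and IDH2R172K. A TPM difference below those medians lies under the middle of its comparison. With median-ratio scaling the members higher and lower at adjusted p alone became 10 and 10 for IDH1R132H, 6 and 14 for IDH2R140Q, 5 and 11 for IDH2R140W and 2 and 22 for IDH2R172K. The share of higher genes among all 2-fold calls moved at the same time to 54.4% for IDH1R132H, 55.1% for IDH2R140Q, 53.5% for IDH2R140W and 54.5% for IDH2R172K, against 71.5%, 75.4%, 56.1% and 68.3% on the TPM scale. Without both IDH2R140W replicate 3 and Parental replicate 2, a setting chosen after seeing the data, the lower members of IDH2R140W numbered 13. Leaving out any 1 library of IDH2R172K brought its higher members to 2. The shares of all genes at adjusted p alone in these settings are not given here. The member counts therefore do not show whether members moved more than other genes did. Among the members named below, several differences at adjusted p alone had an adjusted p above 0.05, between 0.0503 and 0.219, without at least 1 library of either group. These were SLC7A11, GCLC, GPX1, CBR3 and PGD in IDH1R132H, GPX4, TXN and ME1 in IDH2R140Q, SLC7A11, GCLM and OSGIN1 in IDH2R140W and GPX1, CBR3, TALDO1 and ABCC1 in IDH2R172K.

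**Figure D1:**
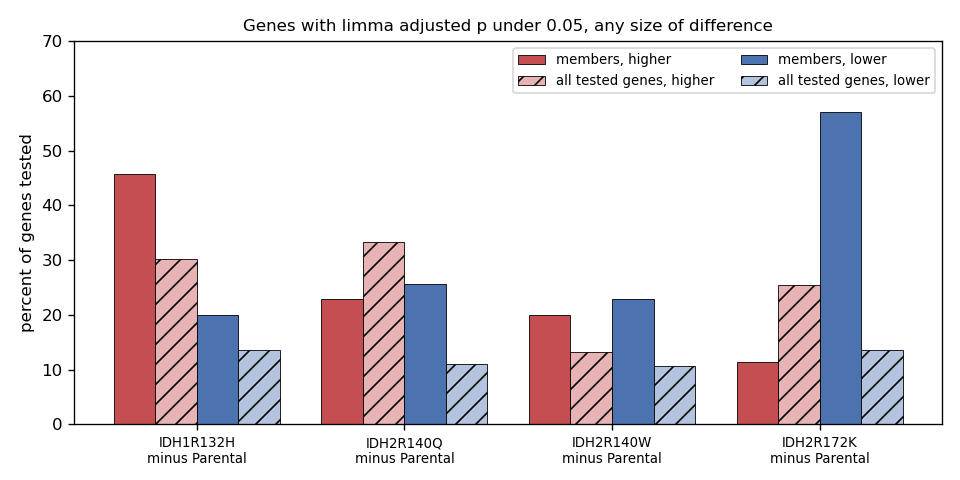
Bars give the percent of the 35 tested members and of all 14881 tested genes that were higher or lower than Parental at adjusted p alone in each edited line. For IDH2R172K the members stand at 11.4% higher and 57.1% lower, against 25.5% and 13.5% of all genes. The members were chosen with earlier results of these data known.

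**Figure D2:**
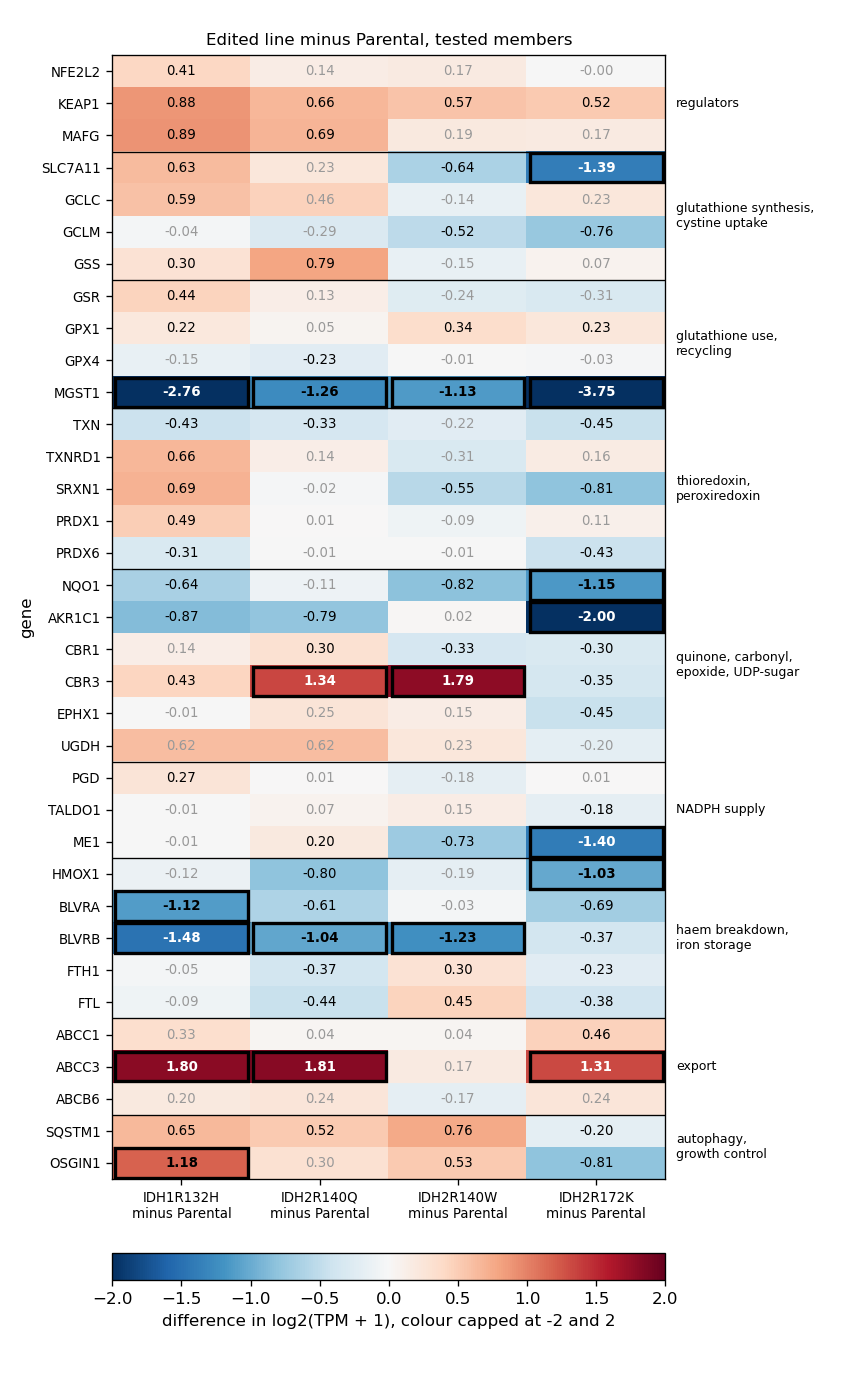
Colour gives the log2(TPM + 1) difference from Parental of each of the 35 tested members, in rows by role, for the 4 edited lines in columns; grey cells did not pass adjusted p 0.05 and boxes mark 2-fold calls. MGST1 fell in 4 lines and BLVRB in 3, and the IDH2R172K column holds 6 boxed decreases.

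Of the regulators, KEAP1, the inhibitor of NRF2, was higher in all 4 edited lines at adjusted p alone, while NFE2L2 moved little. KEAP1 stood at 259, 244 and 249 TPM in IDH1R132H, 212, 218 and 216 TPM in IDH2R140Q, 199.8, 192 and 218 TPM in IDH2R140W and 207, 189 and 192 TPM in IDH2R172K, against 129, 151 and 129 TPM in Parental. Every edited library was above every Parental library. The log2 differences were 0.88, 0.66, 0.57 and 0.52, with adjusted p of 2.84e-07, 5.58e-06, 4.01e-05 and 4.56e-05 in that order of lines. NFE2L2 itself stood at 89.3, 91.0 and 84.9 TPM in IDH1R132H and 66.8, 65.8 and 66.4 TPM in Parental, a log2 difference of 0.41 (adjusted p = 0.00504) that was 0.21 (adjusted p = 0.0792) with median-ratio scaling. In IDH2R140Q, IDH2R140W and IDH2R172K it averaged 73.5 ± 5.47, 75.4 ± 10.4 and 66.5 ± 8.15 TPM (SD, n = 3 each), with no difference from Parental that passed the p threshold. MAFG, a small MAF partner through which NRF2 binds DNA, averaged 43.4 ± 1.55 TPM in IDH1R132H and 37.5 ± 0.889 TPM in IDH2R140Q, against 23.1 ± 3.93 TPM in Parental. It was higher there by 0.89 (adjusted p = 2.17e-05) and 0.69 (adjusted p = 0.000241) on the log2 scale. Its difference in IDH1R132H was 1.02 without Parental replicate 1. In IDH2R140W and IDH2R172K MAFG averaged 26.4 ± 3.20 and 26.0 ± 1.07 TPM, differences of 0.19 and 0.17 that did not pass; without Parental replicate 1 they were 0.32 (adjusted p = 0.0445) and 0.30 (adjusted p = 0.0362).

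Cystine uptake separated the lines more than the enzymes of glutathione synthesis did. SLC7A11, the cystine and glutamate exchanger that brings in the limiting amino acid of glutathione (ENSG00000151012 on chromosome 4, 138164097 to 138242349, GRCh38, minus strand), was read at 6.60, 7.44 and 6.64 TPM in IDH1R132H, 4.97, 4.62 and 5.40 TPM in IDH2R140Q, 2.05, 2.94 and 1.93 TPM in IDH2R140W and 0.48, 0.98 and 1.53 TPM in IDH2R172K, against 4.39, 3.29 and 4.73 TPM in Parental. The IDH1R132H libraries lay above Parental, and those of IDH2R140W and IDH2R172K below it, with no overlap; IDH2R140Q overlapped Parental. SLC7A11 fell in IDH2R172K by 1.39 on the log2 scale (adjusted p = 6.40e-05). At adjusted p alone it was lower in IDH2R140W, at -0.64 (adjusted p = 0.0272), and higher in IDH1R132H, at 0.63 (adjusted p = 0.0169). These were -0.56 (adjusted p = 0.0743) without IDH2R140W replicate 3 and 0.50 (adjusted p = 0.0716) without Parental replicate 2. These levels are a few TPM, where the pseudocount shrinks the change.

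The ligase that commits glutamate and cysteine to glutathione has a catalytic subunit, GCLC, and a modifier subunit, GCLM. GCLM averaged 46.0 ± 4.48 TPM in IDH1R132H, 38.7 ± 3.85 TPM in IDH2R140Q, 33.2 ± 6.96 TPM in IDH2R140W and 27.7 ± 3.56 TPM in IDH2R172K, against 47.6 ± 6.70 TPM in Parental (SD, n = 3 each). It was lower at adjusted p alone in IDH2R172K, at -0.76 (adjusted p = 0.00142), and in IDH2R140W, at -0.52 (adjusted p = 0.0238). That IDH2R140W difference was -0.34 (adjusted p = 0.0800) without IDH2R140W replicate 3 and -0.41 (adjusted p = 0.102) without Parental replicate 3. GCLC varied widely within groups, with 86.9, 70.1 and 63.2 TPM in IDH1R132H against 62.0, 31.6 and 55.8 TPM in Parental. Its difference of 0.59 in IDH1R132H (adjusted p = 0.0467) rested on Parental replicate 2, without which it was 0.30 (adjusted p = 0.219). The ratio of GCLM to GCLC in TPM, a description with no test, was 0.471, 0.705 and 0.757 in IDH1R132H, 0.502, 0.693 and 0.571 in IDH2R140Q, 0.710, 0.842 and 0.724 in IDH2R140W and 0.506, 0.593 and 0.391 in IDH2R172K, against 0.708, 1.38 and 0.992 in Parental. The IDH2R140Q and IDH2R172K libraries lay below the lowest Parental value. GSS, the synthetase of the second step, was at 82.8, 82.3 and 81.7 TPM in IDH2R140Q, against 51.3, 44.1 and 46.5 TPM in Parental, a log2 difference of 0.79 (adjusted p = 6.23e-07). The other lines averaged 58.2 ± 1.39 TPM in IDH1R132H, 42.5 ± 1.58 TPM in IDH2R140W and 49.8 ± 1.41 TPM in IDH2R172K.

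Among the genes that use glutathione, MGST1 changed most and fell in all 4 edited lines. MGST1 encodes a membrane-bound glutathione transferase that conjugates electrophiles and reduces lipid peroxides, and lies on chromosome 12 at 16347142 to 16609259 (GRCh38, plus strand, ENSG00000008394). It was read at 12.9, 13.5 and 15.3 TPM in IDH1R132H, 41.4, 38.4 and 43.7 TPM in IDH2R140Q, 38.6, 45.3 and 52.1 TPM in IDH2R140W and 6.36, 5.49 and 7.81 TPM in IDH2R172K, against 88.2, 119 and 94.3 TPM in Parental. Every edited library was below every Parental library, and the IDH1R132H and IDH2R172K libraries were below those of the other edited lines. The log2 differences were -2.76 (adjusted p = 3.99e-09), -1.26 (adjusted p = 9.48e-06), -1.13 (adjusted p = 5.00e-05) and -3.75 (adjusted p = 2.82e-10) in that order of lines, each with a standard error of 0.142. MGST1 is one of 2 members with a 2-fold call whose RefSeq promoter window held the core letters of an antioxidant response element, TGACNNNGC, and the stretch around its match is shown for that reason. It covers chr12:16347135-16347164 (GRCh38.p14, plus strand), the match in capitals begins 31 bases after the start, and the gene has 3 such windows, of which this one held the match.
MGST1: ggggacatcgTGACAAAGCaaattgtctgg

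The peroxidases that reduce peroxides with glutathione, and the reductase that regenerates it, moved less. GPX1, the cytosolic glutathione peroxidase, averaged 415 ± 6.76 TPM in IDH1R132H, 370.0 ± 13.6 TPM in IDH2R140Q, 455 ± 40.7 TPM in IDH2R140W and 419.9 ± 16.1 TPM in IDH2R172K, against 359 ± 44.7 TPM in Parental. GPX4, which reduces lipid hydroperoxides in membranes, was lower in IDH2R140Q by 0.23 on the log2 scale (635 ± 16.8 TPM, against 746 ± 78.1 TPM in Parental, adjusted p = 0.021), and the difference was -0.14 (adjusted p = 0.0815) without Parental replicate 2. GSR, which reduces oxidised glutathione with NADPH, stood at 131.7, 119 and 125 TPM in IDH1R132H, against 105, 75.0 and 98.9 TPM in Parental. That difference was 0.44 (adjusted p = 0.010), and 0.29 (adjusted p = 0.0418) without Parental replicate 2, the lowest of its group. GPX1 has processed pseudogene copies, and how the authors' counting split reads between such copies is not given in the sources used here.

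In the thioredoxin system SRXN1, PRDX1 and TXNRD1 were higher in IDH1R132H, and SRXN1, TXN and PRDX6 were lower in IDH2R172K. SRXN1 encodes sulfiredoxin, which repairs overoxidised peroxiredoxins. Its values were 139, 149.9 and 141 TPM in IDH1R132H, 85.9, 85.5 and 90.6 TPM in IDH2R140Q, 62.3, 61.6 and 56.6 TPM in IDH2R140W and 48.3, 51.1 and 51.3 TPM in IDH2R172K, against 88.8, 86.1 and 90.5 TPM in Parental. The groups did not overlap except IDH2R140Q and Parental. The differences at adjusted p alone were 0.69 in IDH1R132H (adjusted p = 7.87e-07), -0.55 in IDH2R140W (adjusted p = 1.66e-05) and -0.81 in IDH2R172K (adjusted p = 2.12e-07). PRDX1, an abundant peroxiredoxin that removes hydrogen peroxide, was at 2304, 2357 and 2414 TPM in IDH1R132H, above all other libraries, against 1647, 1761 and 1626 TPM in Parental. That is a log2 difference of 0.49 (adjusted p = 1.55e-06). TXNRD1, which reduces thioredoxin with NADPH, was at 214, 225 and 212 TPM in IDH1R132H, against 162, 101 and 156 TPM in Parental, a difference of 0.66 (adjusted p = 0.00800) that was 0.45 without Parental replicate 2. TXN, thioredoxin itself, went the other way and averaged 326 ± 18.8 TPM in IDH1R132H, 351 ± 17.9 TPM in IDH2R140Q and 322 ± 4.96 TPM in IDH2R172K, against 386, 547 and 405 TPM in Parental, where replicate 2 was the highest. The TXN differences of -0.43, -0.33 and -0.45 at adjusted p alone were -0.28, -0.17 and -0.29 without that library, and the second then had an adjusted p of 0.134. PRDX6, which reduces phospholipid hydroperoxides, was lower at adjusted p alone in IDH1R132H and IDH2R172K, with means of 283 ± 16.4 and 260.3 ± 11.7 TPM against 352 ± 35.7 TPM in Parental.

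The quinone and carbonyl enzymes split by line, and 3 of the 6 tested passed 2-fold somewhere. NQO1, a quinone reductase and a standard readout of NRF2 activity (ENSG00000181019 on chromosome 16, 69706996 to 69726951, minus strand), was at 35.0, 34.7 and 37.2 TPM in IDH1R132H, 49.95, 55.1 and 50.9 TPM in IDH2R140Q, 32.7, 33.5 and 28.1 TPM in IDH2R140W and 26.8, 24.6 and 23.2 TPM in IDH2R172K, against 56.4, 53.4 and 58.6 TPM in Parental. IDH2R140Q overlapped Parental and the other 3 lines lay below it. NQO1 fell in IDH2R172K by 1.15 (adjusted p = 1.66e-07), and at adjusted p alone it was lower in IDH1R132H by 0.64 and in IDH2R140W by 0.82 on the log2 scale. AKR1C1, an aldo-keto reductase that reduces ketosteroids and lipid aldehydes, averaged 62.4 ± 2.06 TPM in IDH1R132H, 65.9 ± 0.870 TPM in IDH2R140Q, 117 ± 7.72 TPM in IDH2R140W and 28.0 ± 3.17 TPM in IDH2R172K, against 115 ± 5.48 TPM in Parental (SD, n = 3 each). It fell in IDH2R172K by 2.00 (adjusted p = 5.09e-10). Its differences of -0.87 in IDH1R132H and -0.79 in IDH2R140Q became -1.06 and -1.05 with median-ratio scaling. The near-identical genes AKR1C2 and AKR1C3 were listed at 0 in every library, so the reads assigned to AKR1C1 may include theirs.

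CBR3, a carbonyl reductase, rose in both R140 lines. Its values were 4.58, 4.26 and 5.26 TPM in IDH1R132H, 10.3, 9.46 and 9.41 TPM in IDH2R140Q, 13.0, 13.1 and 14.9 TPM in IDH2R140W and 2.10, 2.11 and 2.82 TPM in IDH2R172K, against 3.01, 3.73 and 2.98 TPM in Parental. No edited line overlapped Parental, IDH2R172K lay below it and the other 3 above it. CBR3 rose by 1.34 in IDH2R140Q (adjusted p = 2.29e-06) and 1.79 in IDH2R140W (adjusted p = 3.14e-07). In IDH1R132H it was higher by 0.43 (adjusted p = 0.0162), and in IDH2R172K it was at -0.35 (adjusted p = 0.0494), or -0.26 (adjusted p = 0.164) without Parental replicate 2. CBR1, of the same family, was higher at adjusted p alone in IDH2R140Q, at 0.30 (adjusted p = 0.00092), and lower in IDH2R140W, at -0.33 (adjusted p = 0.00082), and in IDH2R172K, at -0.30 (adjusted p = 0.00093). It averaged 192 ± 3.55, 124 ± 6.35 and 126 ± 2.39 TPM in those lines, against 156 ± 10.2 TPM in Parental. With median-ratio scaling the CBR1 difference in IDH2R140Q was 0.04. EPHX1, an epoxide hydrolase, was lower at adjusted p alone in IDH2R172K, at 8.76 ± 0.786 TPM against 12.3 ± 1.02 TPM in Parental. UGDH, which makes the sugar donor for glucuronidation, averaged 5.95 to 11.7 TPM in the edited lines, and none of its differences from Parental passed the p threshold. Its difference of 0.62 in IDH2R140Q was 0.95 (adjusted p = 0.0139) without IDH2R140Q replicate 1, and without Parental replicate 1 UGDH passed in IDH1R132H and IDH2R140Q at 0.83 and 0.82.

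Of the NADPH suppliers, ME1 changed and the measured enzymes of the pentose phosphate pathway did not pass 2-fold. ME1, the cytosolic malic enzyme that makes NADPH from malate (chromosome 6, 83210389 to 83431071, GRCh38, minus strand), was at 80.9, 83.6 and 82.3 TPM in IDH1R132H, 93.0, 91.5 and 99.8 TPM in IDH2R140Q, 49.5, 51.7 and 47.5 TPM in IDH2R140W and 28.9, 31.1 and 32.4 TPM in IDH2R172K, against 81.4, 84.8 and 81.5 TPM in Parental. IDH1R132H overlapped Parental, while the IDH2 lines did not. ME1 fell in IDH2R172K by 1.40 (adjusted p = 1.60e-09) and was lower in IDH2R140W by 0.73 (adjusted p = 2.09e-06). In IDH2R140Q it was higher by 0.20 (adjusted p = 0.0243), and that difference was -0.07 with median-ratio scaling. PGD, the NADPH-producing dehydrogenase of the pentose phosphate pathway, averaged 586 ± 8.54 TPM in IDH1R132H against 490.5 ± 65.8 TPM in Parental, a difference of 0.27 (adjusted p = 0.026) that was 0.06 with median-ratio scaling and 0.15 (adjusted p = 0.103) without Parental replicate 2. TALDO1, transaldolase, averaged 344 ± 8.45 TPM in IDH2R172K against 391 ± 10.8 TPM in Parental, a difference of -0.18 (adjusted p = 0.013). The ME1 promoter is shown because it too held the core letters. The 250 bases before its start cover chr6:83431052-83431301 (GRCh38.p14, minus strand, written in the direction of the gene), and the match in capitals begins 137 bases before the start. The searched window held a second match, on the opposite strand, which begins 12 bases after the start and lies outside the stretch shown.
ME1: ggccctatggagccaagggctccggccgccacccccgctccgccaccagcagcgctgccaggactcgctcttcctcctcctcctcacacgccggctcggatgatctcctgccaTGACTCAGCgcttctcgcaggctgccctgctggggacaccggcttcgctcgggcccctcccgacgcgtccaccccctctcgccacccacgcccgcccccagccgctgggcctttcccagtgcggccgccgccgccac

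TGACNNNGC was searched on both strands of RefSeq windows from 250 bases before to 50 bases after each start. Of the members, 28 matched an entry, with 40 windows. The letters were found in 10 of these windows (25.0%), belonging to 9 members, against 4687 of 35116 windows of all genes (13.3%). Of the 12 members with a 2-fold call against Parental or in the difference among edited lines, 8 had a window and 2 of them, MGST1 and ME1, held the letters. A match describes the letters and is not evidence of binding, and elements outside the window are not covered.

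**Figure D3:**
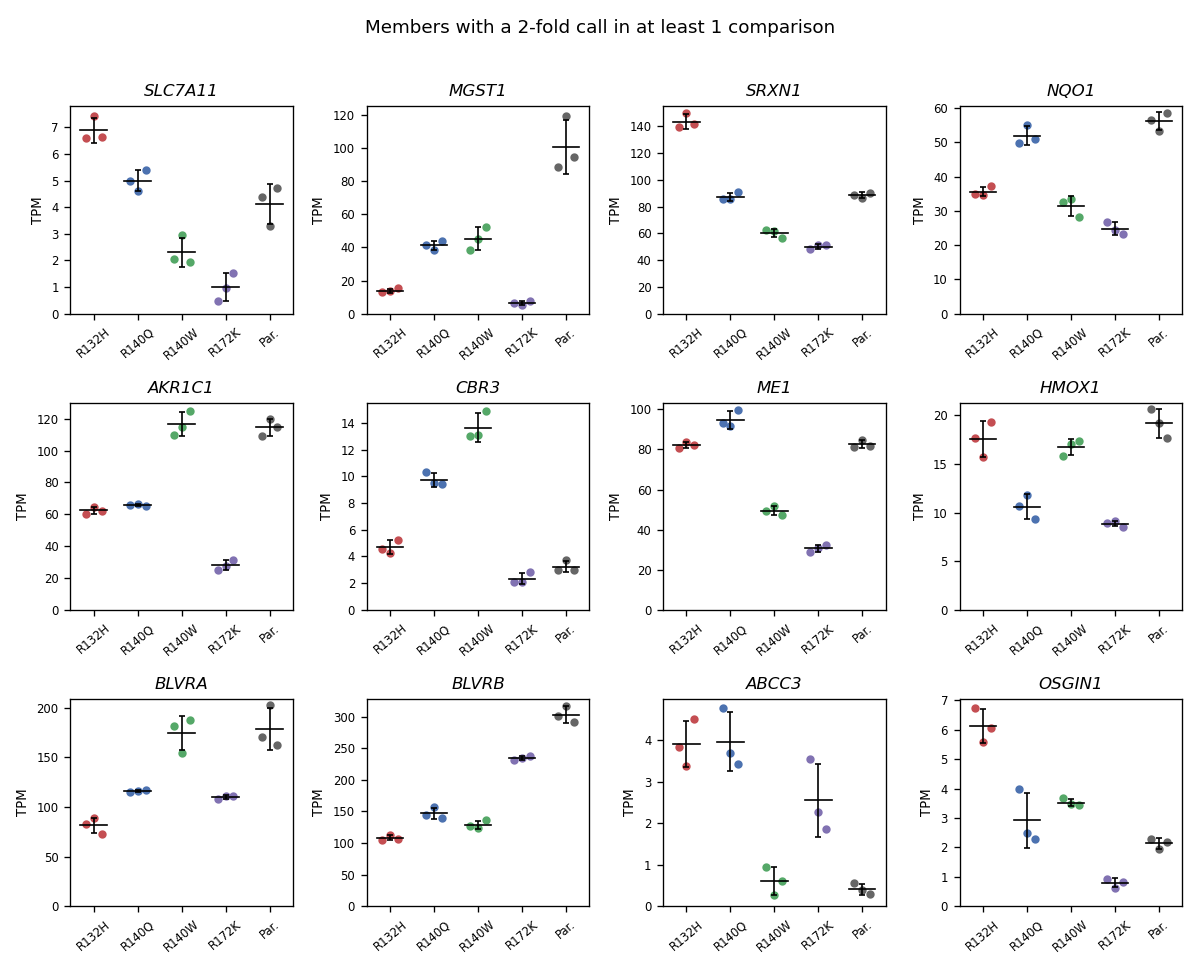
Each panel gives the TPM of 1 of 12 members with a 2-fold call in at least 1 comparison, with a point per library, a line at the mean and bars for the SD of 3 libraries; the edited lines stand left of Parental. MGST1 lies below Parental in all 4 lines, while CBR3 lies at 9.41 to 14.9 TPM in both R140 lines, above every other library.

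The haem-breaking enzymes fell in different lines. BLVRB, a biliverdin and flavin reductase that is abundant in red cells, was at 105, 112 and 107 TPM in IDH1R132H, 145, 157 and 139 TPM in IDH2R140Q, 127, 124 and 136 TPM in IDH2R140W and 231, 235 and 238 TPM in IDH2R172K, against 301, 317 and 291 TPM in Parental. Every edited library was below Parental, and IDH2R172K stood between Parental and the other lines. BLVRB fell by 1.48, 1.04 and 1.23 on the log2 scale in IDH1R132H, IDH2R140Q and IDH2R140W (adjusted p = 5.12e-10, 1.40e-08 and 6.87e-09), and its difference in IDH2R172K was -0.37 (adjusted p = 0.000263). The summed erythroid genes given above were also lowest in those 3 lines, where 7, 9 and 8 of 12 erythroid genes fell, and were near Parental in IDH2R172K, where 2 rose, EPB42 and GYPB. Their part in the BLVRB result was not tested. BLVRA, the biliverdin reductase of most tissues, was at 82.7, 88.4 and 72.8 TPM in IDH1R132H against 170.1, 202 and 163 TPM in Parental, and fell there by 1.12 (adjusted p = 4.14e-07). BLVRA was lower at adjusted p alone in IDH2R140Q, by 0.61 on the log2 scale (116 ± 1.27 TPM, adjusted p = 0.00014), and in IDH2R172K, by 0.69 (109.7 ± 1.87 TPM, adjusted p = 5.00e-05), and all libraries of these lines lay below Parental. In IDH2R140W it averaged 174 ± 17.3 TPM, within the range of the Parental libraries.

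HMOX1, the inducible haem oxygenase that NRF2 and BACH1 control in opposite directions, was at 17.6, 15.7 and 19.3 TPM in IDH1R132H, 10.6, 11.8 and 9.36 TPM in IDH2R140Q, 15.8, 17.0 and 17.4 TPM in IDH2R140W and 8.89, 9.16 and 8.56 TPM in IDH2R172K, against 20.7, 19.1 and 17.7 TPM in Parental. The IDH2 lines lay below Parental and IDH1R132H overlapped it. The differences of -0.19 in IDH2R140W (adjusted p = 0.251) and -0.12 in IDH1R132H (adjusted p = 0.390) did not pass the p threshold. HMOX1 fell in IDH2R172K by 1.03 (adjusted p = 5.35e-06), a difference of -0.98 without Parental replicate 1, and was lower in IDH2R140Q by 0.80 (adjusted p = 5.12e-05), a difference of -1.05 with median-ratio scaling. The ferritin chains, which store the iron that haem breakdown frees, moved together. FTL, the light chain, was at 4891, 4901 and 5534 TPM in IDH2R140W, 2727, 2750 and 2782 TPM in IDH2R140Q and 2909, 2816 and 2894 TPM in IDH2R172K, against 3551, 3989 and 3663 TPM in Parental. FTL was higher in IDH2R140W by 0.45 (adjusted p = 3.24e-05), and lower in IDH2R140Q by 0.44 (adjusted p = 2.15e-05) and in IDH2R172K by 0.38 (adjusted p = 8.32e-05). FTH1, the heavy chain, differed in the same directions, by 0.30, -0.37 and -0.23 in those lines, with 2001 ± 170.2, 1253 ± 11.8 and 1382 ± 7.93 TPM against 1630 ± 162 TPM in Parental. The FTH1 difference in IDH2R140W was 0.25 (adjusted p = 0.171) with median-ratio scaling, and that in IDH2R172K was -0.05 (adjusted p = 0.453) under quantile normalisation. The ratio of FTL to FTH1 was 2.52 to 2.60 in IDH2R140W, above the 2.05 to 2.25 of the other edited lines and the 2.20 to 2.35 of Parental, again as a description. Both ferritin genes, like PRDX1, have processed pseudogene copies.

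**Figure D4:**
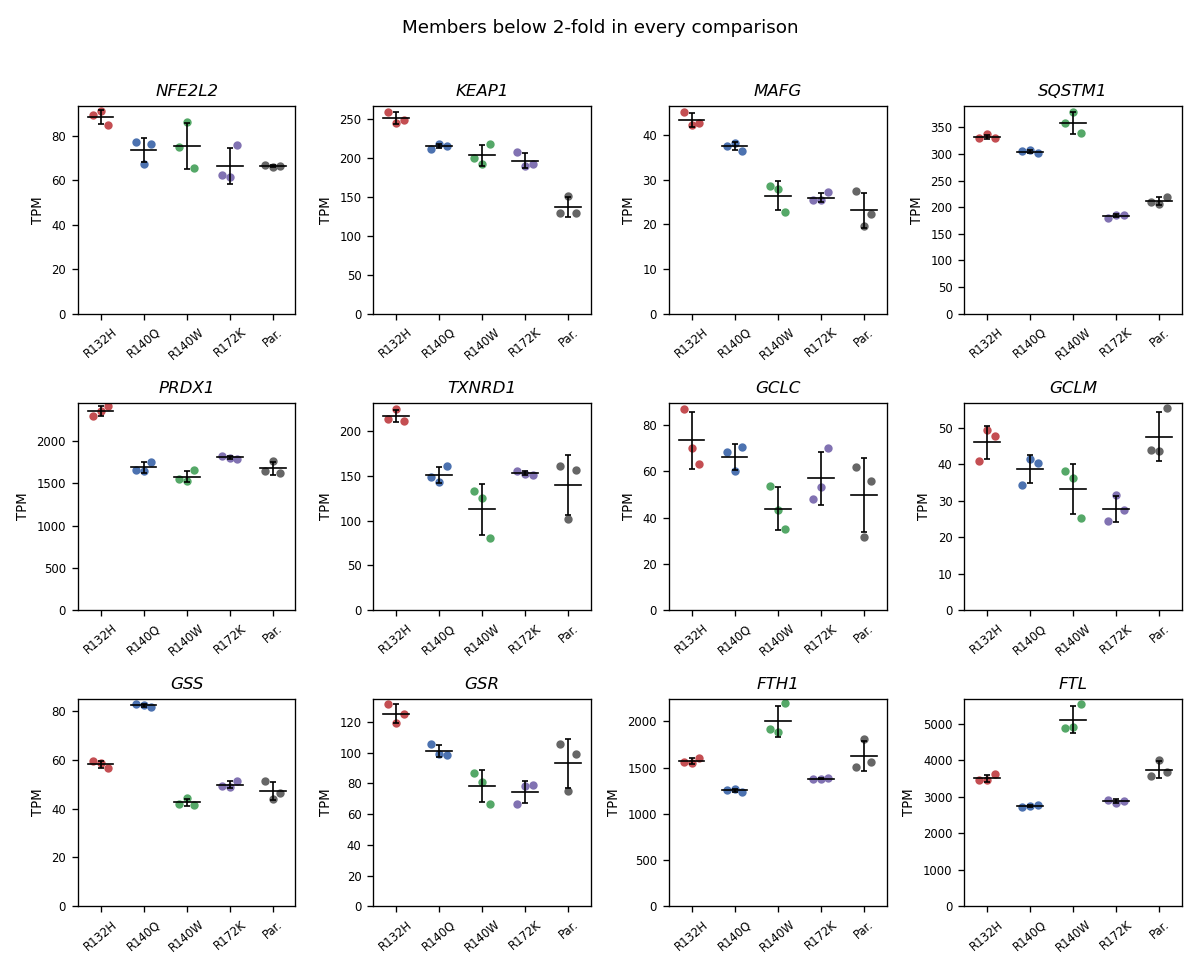
Each panel gives the TPM of 1 of 12 further members that stayed below 2-fold in every comparison, with a point per library, a line at the mean and bars for the SD of 3 libraries; the edited lines stand left of Parental. KEAP1 lies above Parental in all 4 lines, and FTH1 and FTL are highest in IDH2R140W.

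Among the exporters ABCC3 alone rose. ABCC3 moves glucuronide and glutathione conjugates out of cells. It was read at 3.84, 3.39 and 4.50 TPM in IDH1R132H, 4.77, 3.69 and 3.43 TPM in IDH2R140Q, 0.94, 0.26 and 0.62 TPM in IDH2R140W and 3.54, 2.28 and 1.85 TPM in IDH2R172K, against 0.55, 0.38 and 0.29 TPM in Parental. The IDH2R140W libraries overlapped Parental and the other 3 lines did not. No Parental or IDH2R140W library reached the filter level, so ABCC3 was tested only through the 3 lines where it was high. The direction of its differences was thus largely fixed by the filter, and its calls are descriptions. ABCC3 rose by 1.80 in IDH1R132H (adjusted p = 9.57e-06), 1.81 in IDH2R140Q (adjusted p = 1.03e-05) and 1.31 in IDH2R172K (adjusted p = 0.000182), each with a standard error of 0.207, and its difference in IDH2R140W was 0.17 (adjusted p = 0.611). ABCC1, an exporter of glutathione conjugates, averaged 46.5 ± 3.98 TPM in IDH1R132H, 38.4 ± 8.60 TPM in IDH2R140W and 50.8 ± 3.32 TPM in IDH2R172K, against 37.2 ± 7.78 TPM in Parental. Its difference in IDH2R172K was 0.46 (adjusted p = 0.038), and 0.28 (adjusted p = 0.164) without Parental replicate 2. ABCB6, a porphyrin transporter, averaged 38.4 to 51.5 TPM in the edited lines and 43.5 ± 6.42 TPM in Parental, and its differences of 0.20 in IDH1R132H, 0.24 in IDH2R140Q and 0.24 in IDH2R172K did not pass the p threshold. Without Parental replicate 2 they were 0.31, 0.35 and 0.35 and did.

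SQSTM1 and OSGIN1 were higher in 3 and 2 of the lines and lower in IDH2R172K. SQSTM1 encodes p62, an autophagy receptor that captures KEAP1 and is itself an NRF2 target. It was at 329, 337 and 329 TPM in IDH1R132H, 305, 307 and 301 TPM in IDH2R140Q, 357, 379 and 339 TPM in IDH2R140W and 180.5, 185 and 186 TPM in IDH2R172K, against 210.1, 206 and 219.6 TPM in Parental. The groups did not overlap Parental in any line. The differences at adjusted p alone were 0.65 (adjusted p = 2.28e-07), 0.52 (adjusted p = 2.28e-06), 0.76 (adjusted p = 1.37e-07) and -0.20 (adjusted p = 0.00582). OSGIN1, an oxidative stress induced growth inhibitor, was at 6.74, 5.57 and 6.07 TPM in IDH1R132H, 2.93 ± 0.935 TPM in IDH2R140Q (mean ± SD, n = 3, lowest 2.29), 3.67, 3.46 and 3.44 TPM in IDH2R140W and 0.93, 0.63 and 0.83 TPM in IDH2R172K, against 2.30, 1.94 and 2.19 TPM in Parental. IDH2R140Q overlapped Parental through its lowest library, IDH1R132H and IDH2R140W lay above Parental, and IDH2R172K lay below it. OSGIN1 rose in IDH1R132H by 1.18 (adjusted p = 4.75e-05), and at adjusted p alone was higher in IDH2R140W, at 0.53 (adjusted p = 0.0291), and lower in IDH2R172K, at -0.81 (adjusted p = 0.00127). The OSGIN1 difference in IDH2R140W was 0.48 (adjusted p = 0.0757) without Parental replicate 2. The rise in IDH1R132H was 0.99 under quantile normalisation, and the decrease in IDH2R172K was -1.33 with a pseudocount of 0.1, both across the 2-fold line.

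Comparisons within the edited lines share a medium without GM-CSF, so they set the lines side by side under 1 condition. Each genotype was held by 1 line, so genotype and line cannot be told apart in any of them. An F test among the 4 lines found 11 members whose group means differed at adjusted p under 0.05 with at least 2-fold between the highest and the lowest line, beside 19.3% of all genes: SLC7A11, MGST1, SRXN1, NQO1, AKR1C1, CBR3, ME1, BLVRA, BLVRB, ABCC3 and OSGIN1. At adjusted p alone 30 members differed, beside 57.3% of all genes. The widest spans were 2.62 for MGST1, 2.14 for CBR3, 2.02 for AKR1C1 and 2.02 for SLC7A11 on the log2 scale. IDH2R172K had the lowest mean of the 4 lines for SLC7A11, MGST1, SRXN1, NQO1, AKR1C1, CBR3, ME1 and OSGIN1, while IDH2R140W was lowest for ABCC3 and IDH1R132H for BLVRA and BLVRB.

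Set against the mean of the 3 IDH2 lines, IDH1R132H had 3 members that were 2-fold higher, beside 2.66% of all genes. They were SLC7A11 at 1.23 (adjusted p = 3.9e-05), OSGIN1 at 1.17 (adjusted p = 1.1e-05) and SRXN1 at 1.15 (adjusted p = 1.7e-09). At adjusted p alone 16 members were higher, beside 18.8%, and 4 were lower, beside 14.0%. The 16 include NFE2L2 at 0.30, MAFG at 0.54, GCLM at 0.48, GSR at 0.58, TXNRD1 at 0.66, PRDX1 at 0.48, PGD at 0.32 and ME1 at 0.64, which span synthesis, recycling, thioredoxin and NADPH roles. The 4 lower ones were MGST1 at -0.72, BLVRA at -0.68, BLVRB at -0.60 and CBR3 at -0.50. The IDH2 lines did not stand alike behind this mean. Against IDH2R172K alone MGST1 and CBR3 were higher in IDH1R132H, at 0.99 (adjusted p = 0.00011) and 0.77 (adjusted p = 0.00040). Against IDH2R140Q alone ME1 was lower in IDH1R132H, at -0.20 (adjusted p = 0.031), and SLC7A11 differed by 0.40 without passing (adjusted p = 0.145). NFE2L2, MAFG, GCLM and GSR did not pass against IDH2R140Q either, at 0.27, 0.21, 0.24 and 0.31 (adjusted p = 0.067, 0.196, 0.265 and 0.077). NFE2L2 also did not pass against IDH2R140W, at 0.24 (adjusted p = 0.089). TXNRD1, PRDX1 and PGD were higher in IDH1R132H than in each IDH2 line at adjusted p alone. TXNRD1 passed narrowly against IDH2R140Q (adjusted p = 0.0413) and IDH2R172K (adjusted p = 0.0442), as did PGD (adjusted p = 0.0463 and 0.0381). These contrasts with single IDH2 lines were chosen after seeing the data. The median over the members was 0.25, against 0.03 over all genes. With 1 IDH1 line in the study, the mutated gene and the line cannot be told apart.

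Between the IDH2 lines the largest contrasts involved R172K. IDH2R140Q was 2-fold higher than IDH2R172K for 7 members, beside 4.45% of all genes: MGST1 at 2.49 (adjusted p = 1.7e-08), CBR3 at 1.69 (adjusted p = 3.41e-07), SLC7A11 at 1.62 (adjusted p = 1.9e-05), ME1 at 1.59 (adjusted p = 5.98e-10), AKR1C1 at 1.21 (adjusted p = 7.9e-08), OSGIN1 at 1.11 (adjusted p = 0.00012) and NQO1 at 1.04 (adjusted p = 5.7e-07). The last was 0.93 with median-ratio scaling. At adjusted p alone 18 members were higher in IDH2R140Q, beside 19.7%, and 1 was lower, beside 11.4%, namely BLVRB at -0.67. IDH2R140W was 2-fold higher than IDH2R172K for 4 members, beside 2.44%: MGST1 at 2.62 (adjusted p = 8.9e-09), CBR3 at 2.14 (adjusted p = 2.86e-08), AKR1C1 at 2.02 (adjusted p = 4.4e-10) and OSGIN1 at 1.34 (adjusted p = 2.5e-05). In that pair ABCC3 was 2-fold lower, at -1.14 (adjusted p = 0.00078), the 1 such member beside 4.42% of all genes, and 16 members were higher and 5 lower at adjusted p alone, beside 12.0% and 19.2%.

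The substitutions at the same residue, IDH2R140Q and IDH2R140W, differed 2-fold in 1 member, ABCC3, higher in IDH2R140Q by 1.64 (adjusted p = 4.0e-05), beside 4.19% of all genes. ABCC3 was under 1 TPM in every IDH2R140W library and passed the filter only through other lines, so this direction was largely fixed too. At adjusted p alone 11 members were higher in IDH2R140Q, beside 25.0%, and 9 lower, beside 7.91%. ME1 at 0.92, GSS at 0.94, SLC7A11 at 0.87 and NQO1 at 0.71 were among the higher, and FTL at -0.89, AKR1C1 at -0.81, FTH1 at -0.67 and HMOX1 at -0.61 among the lower. With median-ratio scaling FTL and AKR1C1 passed 2-fold in this pair, at -1.11 and -1.03. BLVRA, at -0.58, was lower in IDH2R140Q too, so that 4 of the 5 haem and iron members stood higher in IDH2R140W. The ribosomal protein share, 13.7% to 13.8% in IDH2R140Q and 18.2% to 21.9% in IDH2R140W, differed between the same lines, and its part in these differences was not tested.

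The wider redox machinery was counted from a further list of 67 genes, of which 56 were tested. Of these, 1 rose in IDH1R132H (beside 7.74% of all genes) and 1 in IDH2R140Q (beside 7.56%), and 2 fell in IDH2R140W (beside 2.10%) and 2 in IDH2R172K (beside 2.96%). CHAC1, which degrades glutathione and is a target of the amino acid stress factor ATF4, fell in IDH2R172K by 2.29 (adjusted p = 2.24e-08) and in IDH2R140W by 1.32 (adjusted p = 8.65e-06). Its mean was 19.2 ± 0.484 TPM in IDH1R132H, 9.36 ± 0.310 TPM in IDH2R140Q, 4.78 ± 0.506 TPM in IDH2R140W and 1.99 ± 0.641 TPM in IDH2R172K, against 13.4 ± 0.632 TPM in Parental. The means of the 4 edited lines stood in the same order for SLC7A11, also a target of ATF4. That order also held for SRXN1, GCLM, GSR, MAFG and KEAP1. Parental lay above IDH2R140Q for CHAC1 and below it for SLC7A11. The part of ATF4 was not tested. CHAC2, a relative of CHAC1 with the same activity, fell in IDH2R172K by 1.08 (adjusted p = 2.84e-05). IDH1, the gene of the cytosolic NADPH-producing isocitrate dehydrogenase, fell in IDH2R140W by 1.00 (adjusted p = 3.31e-06), with 34.6 ± 3.19 TPM against 70.3 ± 3.81 TPM in Parental. Leaving out IDH2R140W replicate 3 gave -0.93, and Parental replicate 3 -0.97. At adjusted p alone IDH1 was also lower in IDH1R132H and IDH2R172K, with 36.8 ± 2.23 and 37.7 ± 2.80 TPM. LANCL1, a glutathione-binding protein, rose in IDH2R140Q by 1.09 (adjusted p = 0.000822), with 33.7 ± 0.559 TPM against 15.8 ± 4.96 TPM in Parental, and by 0.87 without Parental replicate 2. NFE2L1, a relative of NRF2 that controls proteasome genes, rose in IDH1R132H by 1.09 (adjusted p = 0.0192), where Parental replicate 2 held 28.7 TPM and the other Parental libraries 82.9 and 65.4 TPM. Without that library the NFE2L1 difference was 0.64 (adjusted p = 0.0843). The 56 genes had medians of -0.13 for IDH1R132H, -0.03 for IDH2R140Q, -0.14 for IDH2R140W and -0.06 for IDH2R172K.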

How the data were processed

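Poly(A) RNA of 15 libraries was measured, and the labels' genotype field set the 5 groups of 3. The authors deposited 1 table of TPM values, which the labels tie to the libraries by column name. STAR 2.7.3, HTSeq, RSEM and hg38 appear in the submitters' processing notes without a stated role. The sources used here give neither strand setting nor annotation. TPM divides by transcript length and library total, so abundant genes that change shift all others, and read numbers cannot be had from it.

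Of 63568 rows, those with the same symbol were summed, giving 56624 symbols (2985 from more than 1 row), and 6 rows with date-like symbols of more than 1 gene were left out. Genes reaching 1 TPM in 3 or more libraries, 14881 in number, were fitted as log2(TPM + 1) with limma 3.58.1 in R 4.3.3, with 1 mean per group and an intensity trend, and p-values were adjusted by Benjamini-Hochberg over all of them. The fit was tested on simulated data. Calls needed an adjusted p under 0.05 and a 2-fold change (log2 difference of 1). All 38 members may be named, and those called get their values and test. Of the further redox genes, up to 5 called ones per comparison with Parental were named. Members and lists were chosen with earlier results of these data known. Coordinates are from GENCODE 29 on GRCh38, and sequences from RefSeq on GRCh38.p14. Alternatives were another pseudocount, filter, scaling, variance model and set of samples, a replicate block, and leaving out each library.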

Additional observations from a re-analysis of the deposited data

Results flagged for a closer look

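In 5 members, 2 edited lines differed from Parental in opposite directions at adjusted p alone and from each other by at least 2-fold, with an adjusted p under 0.05 for that difference itself. The share of all genes that meet this rule is not given here, so the count is not read as particular to the members. Among the 4 edited lines 57.3% of all genes differed at adjusted p alone. SLC7A11, the cystine exchanger, differed by 2.02 on the log2 scale between IDH1R132H and IDH2R172K (limma, adjusted p = 2.56e-06), with 0.63 and -1.39 against Parental, and by 1.27 between IDH1R132H and IDH2R140W (adjusted p = 0.000161), which was at -0.64. SRXN1, sulfiredoxin, differed by 1.50 between IDH1R132H and IDH2R172K (adjusted p = 6.12e-10) and by 1.24 between IDH1R132H and IDH2R140W (adjusted p = 3.72e-09), with 0.69, -0.81 and -0.55 against Parental. OSGIN1 differed by 1.99 between IDH1R132H and IDH2R172K (adjusted p = 5.05e-07), with 1.18 and -0.81, and by 1.34 between IDH2R140W and IDH2R172K (adjusted p = 2.46e-05), with 0.53 in IDH2R140W. CBR3 differed by 1.69 between IDH2R140Q and IDH2R172K (adjusted p = 3.41e-07), and by 2.14 between IDH2R140W and IDH2R172K (adjusted p = 2.86e-08), with 1.34 and 1.79 in the R140 lines and -0.35 in IDH2R172K, where the adjusted p of 0.0494 was close to the threshold. ME1 differed by 1.59 between IDH2R140Q and IDH2R172K (adjusted p = 5.98e-10), with 0.20 and -1.40 against Parental, and its IDH2R140Q difference was -0.07 with median-ratio scaling. Several of these differences from Parental had an adjusted p above 0.05 when a single library was left out, as given in the Results. They were SLC7A11 in IDH1R132H and in IDH2R140W, OSGIN1 in IDH2R140W, CBR3 in IDH2R172K and ME1 in IDH2R140Q. CBR1, SQSTM1, FTH1 and FTL also lay on opposite sides of Parental in pairs of lines that differed at adjusted p alone, by less than 2-fold. The lines share the Parental libraries, and the contrasts of IDH1R132H with single IDH2 lines were chosen after seeing the data.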

How the results depend on the processing

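The counts of 2-fold members kept to within 1.5 times under each alternative run, with the exceptions given here. Without the 2-fold minimum the counts against Parental were 23 for IDH1R132H, 17 for IDH2R140Q, 15 for IDH2R140W and 24 for IDH2R172K. Beside them, the shares of all genes higher and lower were 30.1% and 13.7%, 33.3% and 11.1%, 13.3% and 10.7%, and 25.5% and 13.5%. Also without that minimum, the counts were 20 for IDH1R132H against the IDH2 mean, 20 for IDH2R140Q against IDH2R140W, 19 for IDH2R140Q against IDH2R172K, 21 for IDH2R140W against IDH2R172K and 30 among the 4 edited lines. Beside these, all genes stood at 18.8% and 14.0%, 25.0% and 7.91%, 19.7% and 11.4%, and 12.0% and 19.2%, with 57.3% differing among the 4 lines. The count for IDH2R140Q against IDH2R140W, 1 member, was 2 with a pseudocount of 0.1 and 3 with median-ratio scaling. It was 0 in limma with a minimum of 5 TPM, where ABCC3 is not tested and 21 members passed an unadjusted p of 0.05. Leaving out each library gave 1 to 2 there. A block for the replicate number left all counts as they were (5, 4, 3 and 7 against Parental). Same-numbered libraries did not deviate together, with correlations of -0.285 to 0.223, and 7 of 15 libraries were closest to their own number. The 2-fold calls lost in single settings, beside those in the report, were NQO1 in IDH2R140Q against IDH2R172K (0.93 to 0.99), OSGIN1 in that pair (0.92 without IDH2R140Q replicate 1) and ABCC3 in IDH2R140W against IDH2R172K (-0.98 without IDH2R140W replicate 2, -0.95 without IDH2R172K replicate 1). Read depth is unknown, so no counting error can be given for values near 1 TPM.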
